A study of Sus scrofa with 13 samples.

Results

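The 9 genes described here are 7 serine proteases that have been tied to blastocyst hatching or to the epithelia that do the hatching, and 2 inhibitors of such proteases. They were taken by symbol from the deposited table of 28232 pig genes, and each of the 9 symbols was found there. The proteases fall into the secreted enzymes PLAU, PLAT and HTRA1 and the membrane-bound enzymes TMPRSS2, TMPRSS13, ST14 and PRSS8. SPINT1 and SPINT2 are the inhibitors. Messenger RNA was measured by sequencing in pools of Sus scrofa embryos, to compare developmental stages and to compare embryos made by in vitro fertilisation (IVF) with embryos that developed in the sow. The groups were IVF 4-cell embryos, IVF blastocysts, in vivo blastocysts, IVF hatched blastocysts and in vivo hatched blastocysts, with 3 libraries in each IVF group and 2 in each in vivo group. A blastocyst still sits inside the zona pellucida, the glycoprotein coat of the egg, and a hatched blastocyst has left it. The number of embryos in a pool, breed, embryo age and day of collection, and the question of separate animals or fertilisation rounds behind the libraries of a group, are not given in the sources used here. What the p-values below weigh is thus library-to-library spread, part of which may be technical.

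Trypsin-like serine proteases are made as inactive precursors and cut other proteins after a basic residue. PLAU and PLAT, the urokinase and tissue-type plasminogen activators, turn plasminogen into plasmin, which degrades fibrin and extracellular matrix. ST14 (matriptase) and PRSS8 (prostasin) activate each other on epithelial surfaces in the mouse, and the Kunitz-type inhibitors SPINT1 (HAI-1) and SPINT2 (HAI-2) hold them in check. The trophectoderm, the outer epithelium of the blastocyst, pumps fluid into the cavity and faces the zona, and trypsin-like activity from it has long been linked to hatching in the mouse.

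Each library held 33259311 to 39273867 counts, and 3 counts, the limit below which no fold is given here, equal 0.0764 to 0.0902 CPM. CPM is the count scaled to a library total of 1000000 and is the unit of all levels below, unless TPM, which is scaled by gene length as well, is named. The summed level of 10 trophectoderm markers was 20948 to 38541 CPM in the 10 blastocyst and hatched libraries and 105 to 865 CPM in the 4-cell libraries, while 8 egg markers summed to 12123 to 16764 CPM in 4-cell embryos and to at most 8.81 CPM later. Some measures moved with origin. The share of counts from mitochondrial messages was 0.883% to 1.07% in IVF blastocysts, against 3.52% and 3.76% in in vivo blastocysts, and 0.606% to 0.982% in IVF hatched blastocysts, against 1.49% in the unnumbered in vivo hatched library and 6.85% in library 2. The unnumbered library is the in vivo hatched library whose column carries no replicate number. AIF1, a gene best known from macrophages, moved with origin among 9 blood and immune markers, with 149 ± 28.7 CPM in IVF blastocysts, against 58.0 ± 9.71 CPM in in vivo blastocysts, and 139 ± 19.1 CPM in IVF hatched, against 2.74 ± 1.5 CPM in in vivo hatched blastocysts. The AIF1 call between blastocysts (edgeR adjusted p = 0.0240) was lost without any of 4 of the 10 libraries and with all 13 in the fit. That between hatched blastocysts held in each. AIF1 also fell with hatching in vivo (log2 fold change -4.51, edgeR adjusted p = 0.000186). The list summed to 123 to 175 CPM in IVF blastocysts, 54.2 to 69.2 CPM in in vivo blastocysts, 121 to 161 CPM in IVF hatched and 2.99 to 6.21 CPM in in vivo hatched blastocysts, and PTPRC, CD3E, CSF1R and HBB were at 0 in the IVF blastocysts and the IVF hatched blastocysts. LYZ, lysozyme, did not pass the test but had ranges that were apart by origin, with 3.77 ± 1.96 CPM in IVF and 0.524 ± 0.132 CPM in in vivo blastocysts and with 2.27 ± 1.39 CPM in IVF hatched and 0.348 ± 0.492 CPM in in vivo hatched blastocysts (adjusted p = 0.145 and 0.149). CD68, a macrophage gene, averaged 2.20 and 2.36 CPM in IVF and in vivo blastocysts and 2.05 and 1.15 CPM in IVF and in vivo hatched blastocysts. Epiblast or inner cell mass markers (5 genes in 6 rows) had a median log2 fold change, IVF over in vivo, of -2.89 in blastocysts and -3.34 in hatched blastocysts. Each time 1 row was positive, that of POU5F1, with 1116 and 740 CPM in IVF and in vivo blastocysts and 893 and 428 CPM in hatched ones. POU5F1 was called higher in the hatched, KLF4 lower in blastocysts (4.79 and 22.2 CPM) and 1 of 2 NANOG rows lower in the hatched (0.221 and 7.20 CPM). The part of these measures in the results below was not tested. In bulk RNA, fewer cells of a type and less RNA per cell cannot be told apart.

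Differences were tested with edgeR's quasi-likelihood test over all genes, and a gene was called at a Benjamini-Hochberg adjusted p under 0.05. The adjusted p-values below come from this test, and values after ± are the SD between libraries for levels (n = 3 for IVF, n = 2 for in vivo) and the standard error for log2 fold changes. Between 4-cell embryos and IVF blastocysts, 5 of the 8 members tested rose and none fell, in a comparison where 56.3% of all genes were called, 25.7% higher and 30.6% lower. IVF hatched blastocysts differed from 4-cell embryos in the same 5 members, all higher, with 56.6% of all genes called, 25.7% higher and 30.9% lower. The median log2 fold change of the 8 members was 4.03 in blastocysts and 4.14 in hatched blastocysts, beside -0.23 and -0.24 over all genes. HTRA1 did not pass the filter on low counts there. The members were chosen with earlier results of these data known, so these medians and those below are descriptions.

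Among blastocysts, 3 of 9 members were called higher after IVF than in vivo (SPINT1, TMPRSS2 and ST14) and none lower, where 10.8% of all genes were called, 6.09% higher and 4.74% lower. The members' median log2 fold change was 1.3, beside 0.05 over all genes. Among hatched blastocysts, TMPRSS13 was called higher and PRSS8 lower after IVF, 2 of 9 members, where 11.8% of all genes were called, 6.96% higher and 4.88% lower. The median was 0.49 over the members, beside 0.04 over all genes. With hatching in vivo, TMPRSS2 rose and TMPRSS13 fell, again 2 of 9, where 14.3% of all genes were called, 6.96% higher and 7.39% lower. The median was 0.62 over the members, beside -0.01 over all genes. With hatching after IVF no member was called, and 7 of 15528 genes were (0.0451%), with 594 at an unadjusted p under 0.05 and 51 called by DESeq2. The hatching change itself differed between origins for 2 of 9 members, TMPRSS13 with a positive and TMPRSS2 with a negative difference, where 4.71% of all genes were called, 2.79% positive (higher) and 1.93% negative (lower). The median difference was -0.75 over the members and 0.00 over all genes. Setting a member at 0 in a group at its bound left the medians as they were. This is no check on them, because such a member stayed on the same side of the median. Each share of members called after the 4-cell stage is set by at most 3 genes. None of these calls between origins or between hatched and unhatched embryos passed when the 4-cell libraries were added to the fit, so that all 13 libraries shared 1 estimate of the spread. The comparisons of IVF blastocysts and of in vivo hatched blastocysts with in vivo blastocysts share the in vivo blastocyst libraries, and likewise for the other groups.

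**Figure D1:**
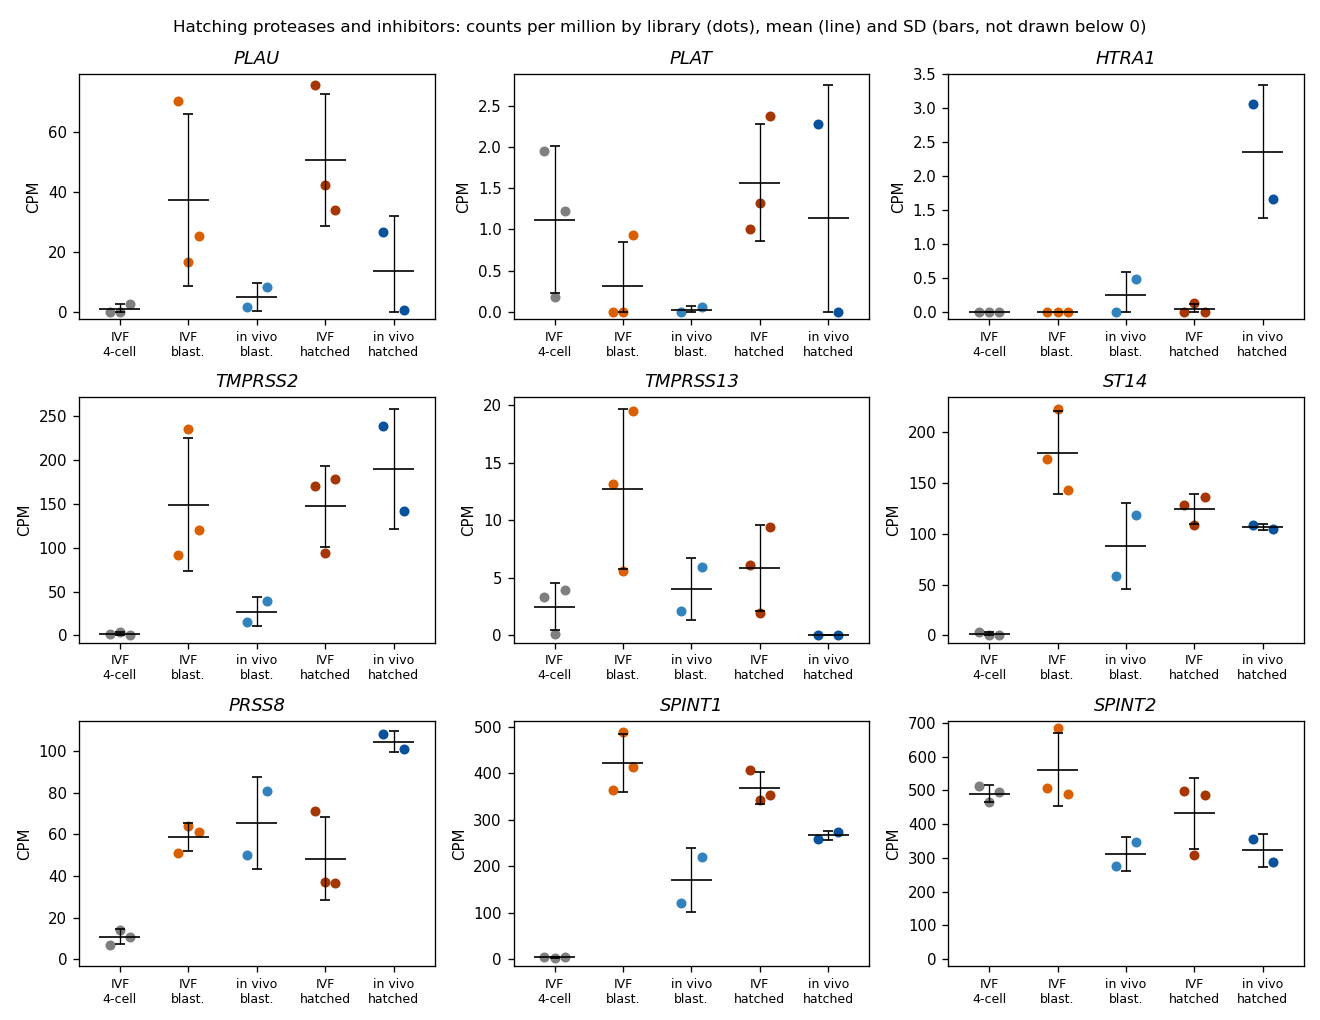
CPM of each of the 9 genes (vertical axis, linear, scale differs by panel) in the 5 groups (horizontal axis, by stage, with IVF left of in vivo), with 1 dot per library, the group mean as a line and the SD as bars. Among the 4 later groups TMPRSS2 is lowest in in vivo blastocysts, TMPRSS13 is at 0 in both in vivo hatched libraries, and SPINT2 alone is high at the 4-cell stage.

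TMPRSS2, a type II transmembrane protease of airway, gut and prostate epithelium (gene 100739292, chromosome 13, 204874759 to 204905411, Sscrofa11.1), was lower in in vivo blastocysts than in the other later groups. Levels were 1.92, 3.76 and 0 CPM in 4-cell embryos. IVF blastocysts had 91.6, 235 and 121 CPM, against 15.4 and 38.8 CPM in in vivo blastocysts. IVF hatched blastocysts had 170, 93.6 and 178 CPM, against 239 CPM in the unnumbered library and 142 CPM in library 2 of in vivo hatched blastocysts. Both in vivo blastocyst libraries thus lay below all 8 others of the later stages, and the hatched groups overlapped. The level in IVF blastocysts was 5.56-fold that in in vivo blastocysts (log2 fold change 2.48 ± 0.50, adjusted p = 0.0129). In vivo hatched blastocysts had 6.89-fold the level of in vivo blastocysts (2.78 ± 0.53, adjusted p = 0.00652). IVF embryos showed no such step, with a log2 fold change of 0.00 ± 0.40 between hatched and unhatched blastocysts (adjusted p = 1), and the difference between the hatching changes, IVF minus in vivo, was -2.79 ± 0.65 (adjusted p = 0.0367).

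Some epithelial markers moved with TMPRSS2 and others against it. Of 10 trophectoderm markers, ELF3 and KRT19 were called higher and DAB2 and GATA3 lower in in vivo hatched than in in vivo blastocysts. There 14.3% of all genes were called, 6.96% higher and 7.39% lower. The median log2 fold change of the 10 was 0.008, with 5 positive. DAB2 had 931 CPM in in vivo hatched, 1881 CPM in in vivo and 1155 CPM in IVF blastocysts. GATA3 had 56.5, 118 and 65.9 CPM in the same order (adjusted p = 0.04997 with hatching in vivo). Neither was called between blastocysts. ELF3, an epithelial transcription factor, had 97.1 ± 50.3 CPM in in vivo hatched blastocysts, against 26.0 ± 19.5 CPM in in vivo blastocysts (adjusted p = 0.0230). It was also called higher in IVF blastocysts, at 108 ± 19.3 CPM, than in in vivo blastocysts (adjusted p = 0.0176). KRT19, a keratin, had 181 ± 96.7 CPM in in vivo hatched and 8.51 ± 4.32 CPM in in vivo blastocysts (adjusted p = 0.0253). Of 10 markers of oviduct and uterine epithelium, 7 were tested and 3 were called higher with hatching in vivo (SLC26A4, UPK1B and LTF) and none lower. SLC26A4, an anion exchanger, had 139.6 ± 77.5 CPM in in vivo hatched and 49.998 ± 12.9 CPM in in vivo blastocysts, UPK1B had 2.69 ± 0.137 and 0.507 ± 0.374 CPM, and LTF had 0.508 ± 0.115 CPM and 0 in the same order. UPK1B was called higher in IVF blastocysts, at 4.94 ± 1.69 CPM, than in in vivo blastocysts as well (adjusted p = 0.0117), a call that held with each library left out. PGR and MUC1 went the other way and were not called. PGR had 0.228 CPM in in vivo hatched and 2.84 CPM in in vivo blastocysts, and MUC1 had 0 and 0.717 CPM. The list summed to 89.0 to 199 CPM in in vivo hatched and 45.1 to 63.3 CPM in in vivo blastocysts, and to 59.3 to 78.5 CPM in IVF blastocysts. Most of each sum was SLC26A4, and ACP5 was at 0 in all of these groups. The ELF3 call with hatching was lost without in vivo blastocyst library 1 or the unnumbered library, and that between blastocysts without IVF blastocyst library 2 or in vivo blastocyst library 1. KRT19 was lost without either in vivo blastocyst library or the unnumbered one, and SLC26A4 without in vivo blastocyst library 1 or in vivo hatched library 2. With hatching, UPK1B was lost without any of 7 libraries and LTF without any of the 10. None of these calls on ELF3, KRT19, SLC26A4, UPK1B and LTF passed with all 13 libraries in the fit. For the DAB2 and GATA3 calls no such results are given here, so these calls are not shown to be firmer. The part of these epithelia in the level of TMPRSS2 was not tested.

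The hatching call of TMPRSS2 in vivo held with each of the 10 libraries left out in turn, at an adjusted p of at most 0.0437. The call between blastocysts was lost without in vivo blastocyst library 1 (2.02, adjusted p = 0.104), the library with the lower level. The difference of hatching changes was lost without any of 7 libraries, which were IVF blastocyst libraries 2 and 3, all 3 IVF hatched libraries, in vivo blastocyst library 1 and the unnumbered library, with values from -3.47 to -2.29 over all libraries left out and an adjusted p of up to 0.110. With all 13 libraries in the fit, the adjusted p was 0.448 between blastocysts, 0.351 for hatching in vivo and 0.660 for the difference.

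TMPRSS13, a relative of TMPRSS2 that is needed for a normal skin barrier in the mouse (gene 100511523, chromosome 9, 45239349 to 45269757), was present at lower levels and showed the opposite step. It had 3.32, 0.15 and 3.98 CPM in 4-cell embryos. Its level was 13.1, 5.63 and 19.5 CPM in IVF blastocysts, against 2.11 and 5.93 CPM in in vivo blastocysts. IVF hatched blastocysts had 6.15, 1.99 and 9.41 CPM, while no read was counted in either in vivo hatched library. The blastocyst groups overlapped and the hatched groups did not. Against a floor of 3 counts in each library, TMPRSS13 was at least 68.5-fold higher in IVF hatched than in in vivo hatched blastocysts (adjusted p = 0.00169), and at least 47.0-fold lower in in vivo hatched than in in vivo blastocysts (adjusted p = 0.00247). Counts were 637 over the IVF hatched libraries and 302 over the in vivo blastocyst libraries.

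Both of these TMPRSS13 calls held with each library left out in turn (adjusted p of at most 0.0191 and 0.0173), and with all 13 libraries in the fit the adjusted p was 0.0586 and 0.0666. The difference of hatching changes was called as well (adjusted p = 0.0175), and was lost without in vivo hatched library 2 (adjusted p = 0.0629). Between IVF and in vivo blastocysts the log2 fold change was 1.67 ± 0.71 and did not pass (adjusted p = 0.160). TMPRSS13 thus had its lowest level in in vivo hatched blastocysts. TMPRSS2 had its highest group mean there, 190 ± 68.6 CPM, but its range overlapped with those of IVF blastocysts and IVF hatched blastocysts. Between hatched blastocysts by origin TMPRSS2 was not called (-0.31 ± 0.45, edgeR adjusted p = 0.708).

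**Figure D2:**
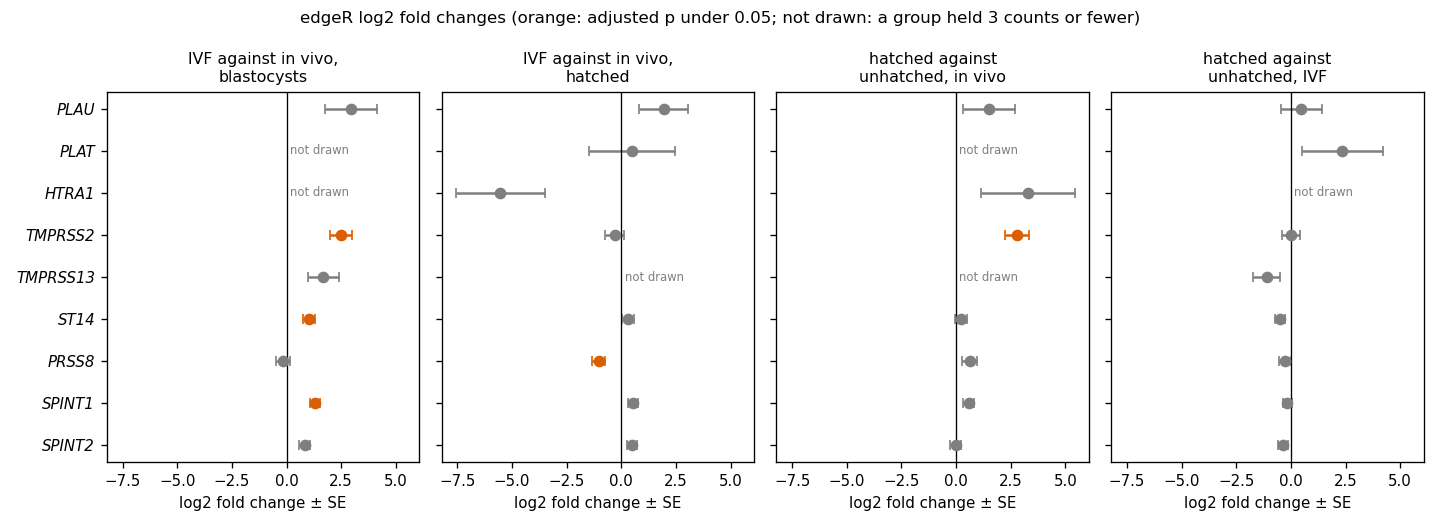
edgeR log2 fold changes (horizontal axis) with standard errors for the 9 genes (rows) in 4 comparisons, orange where the adjusted p was under 0.05. Values are not drawn where a group held 3 counts or fewer, which leaves out TMPRSS13 in the comparisons with in vivo hatched blastocysts. Between IVF blastocysts and in vivo blastocysts TMPRSS2, ST14 and SPINT1 are orange to the right of 0, and in IVF hatching no point is orange.

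ST14, or matriptase, a membrane protease of most epithelia (gene 100517843, chromosome 9, 56888246 to 56929771), had 3.73, 0 and 0.623 CPM in 4-cell embryos. In IVF blastocysts it had 174, 224 and 143 CPM, against 58.5 and 119 CPM in in vivo blastocysts. Hatched blastocysts had 129, 109 and 137 CPM after IVF, against 109 CPM in the unnumbered library and 105 CPM in library 2 in vivo. All 3 IVF blastocyst libraries lay above the rest, and the hatched groups overlapped. The rise from the 4-cell stage was 7.35 ± 1.36 on the log2 scale in IVF blastocysts (adjusted p = 0.00204) and 6.85 ± 1.33 in IVF hatched blastocysts (adjusted p = 0.00253). IVF blastocysts had 2.04-fold the level of in vivo blastocysts (1.03 ± 0.28, adjusted p = 0.0372).

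That difference of ST14 between blastocysts was close to the threshold and rested on several libraries. It was lost without IVF blastocyst library 1 or 2, any of the 3 IVF hatched libraries, or in vivo blastocyst library 1, and the log2 fold change ran from 0.68 to 1.5 with an adjusted p of up to 0.270. With only the 2 groups in the fit the adjusted p was 0.0874, and with all 13 libraries it was 0.790. ST14 was not called with hatching after IVF (-0.50 ± 0.24, adjusted p = 1) although the ranges were apart, nor with hatching in vivo (0.23 ± 0.29, adjusted p = 0.655).

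PRSS8, or prostasin, is tethered to the membrane by a lipid anchor and cleaves the gamma subunit of the epithelial sodium channel (gene 100522730, chromosome 3, 17357793 to 17362223). It was counted in all 13 libraries, with 6.99, 14.2 and 10.7 CPM in 4-cell embryos. IVF blastocysts had 51.1, 64.0 and 61.1 CPM, against 50.01 and 81.0 CPM in in vivo blastocysts. IVF hatched blastocysts had 71.3, 37.1 and 36.6 CPM, against 108 CPM in the unnumbered library and 101 CPM in library 2 of in vivo hatched blastocysts. The blastocyst groups overlapped, and both in vivo hatched libraries lay above every other library. The level after IVF was 0.488-fold that in vivo in hatched blastocysts (log2 fold change -1.03 ± 0.30, adjusted p = 0.0461). From the 4-cell stage PRSS8 rose by 2.68 ± 0.45 in IVF blastocysts (adjusted p = 0.00127) and by 2.43 ± 0.44 in IVF hatched blastocysts (adjusted p = 0.00191).

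The call on PRSS8 in hatched blastocysts was lost without any of the 3 IVF blastocyst libraries, IVF hatched library 2 or 3, or either in vivo hatched library, with log2 fold changes from -1.42 to -0.85 and an adjusted p of up to 0.138. It was also lost with only the 2 groups in the fit (adjusted p = 0.0679) and with all 13 libraries (adjusted p = 0.347). Between hatched and unhatched blastocysts in vivo PRSS8 had ranges that were apart but was not called (0.62 ± 0.33, adjusted p = 0.235).

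SPINT1, the HAI-1 inhibitor that binds matriptase and is required in the mouse placenta (gene 100157387, chromosome 1, 130458909 to 130473791), was the member with the smallest p from the 4-cell stage on. 4-cell embryos had 4.74, 2.53 and 4.84 CPM. IVF blastocysts had 364, 489 and 413 CPM, against 122 and 220 CPM in in vivo blastocysts. In hatched blastocysts the values were 407, 342 and 354 CPM after IVF, against 260 CPM in the unnumbered library and 273 CPM in library 2 in vivo. Every IVF library lay above every in vivo library at both stages. SPINT1 rose 123-fold between 4-cell embryos and IVF blastocysts (6.94 ± 0.43, adjusted p = 1.76e-05) and 110-fold to IVF hatched blastocysts (6.78 ± 0.43, adjusted p = 1.74e-05). IVF blastocysts had 2.46-fold the level of in vivo blastocysts (1.3 ± 0.24, adjusted p = 0.00889).

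In hatched blastocysts the SPINT1 difference between origins was 0.55 ± 0.23 and did not pass (adjusted p = 0.15). The difference of hatching changes, -0.75 ± 0.32, did not pass either (adjusted p = 0.201). The call between blastocysts was lost without in vivo blastocyst library 1 (1.01, adjusted p = 0.0810) and with all 13 libraries in the fit (adjusted p = 0.219). Reads of SPINT1 can be shared with PPP1R14D, whose annotated span overlaps it, since it is not known here whether strand was used in counting.

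SPINT2, the HAI-2 inhibitor of matriptase and prostasin (gene 100515207, chromosome 6, 47181772 to 47210564), was the only member already high in 4-cell embryos, with 513, 464 and 494 CPM. It had 508, 685 and 489 CPM in IVF blastocysts, against 277 and 348 CPM in in vivo blastocysts. IVF hatched blastocysts had 498, 310 and 487 CPM, against 357 CPM in the unnumbered library and 288 CPM in library 2 of in vivo hatched blastocysts. The blastocyst groups were apart and the hatched groups overlapped. No comparison called SPINT2. The log2 fold change was 0.82 ± 0.25 between IVF blastocysts and in vivo blastocysts (adjusted p = 0.0562), 0.49 ± 0.25 between IVF hatched and in vivo hatched blastocysts (adjusted p = 0.222) and 0.43 ± 0.29 between IVF blastocysts and 4-cell embryos (adjusted p = 0.236). The first of these passed with DESeq2 (adjusted p = 0.0110), with no filter on low counts (0.0192) and without IVF hatched library 2 or either in vivo hatched library (0.0433 to 0.0487). The end of SPINT2 overlaps an uncharacterised gene, LOC102167359.

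The order of group means was IVF blastocysts, IVF hatched, in vivo hatched, in vivo blastocysts and 4-cell embryos for both ST14 and SPINT1, from high to low. Neighbours in that order whose ranges overlapped were the IVF groups for SPINT1, and IVF hatched, in vivo hatched and in vivo blastocysts for ST14. PRSS8 had in vivo hatched blastocysts first and apart from the rest, with in vivo blastocysts, IVF blastocysts and IVF hatched blastocysts overlapping below. For SPINT2 and PLAU each group overlapped with the next.

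PLAU, urokinase (gene 396985, chromosome 14, 76629313 to 76635173), varied widely between libraries of a group. It had 0, 0 and 2.76 CPM in 4-cell embryos. IVF blastocysts had 70.4, 16.8 and 25.4 CPM, against 1.65 and 8.27 CPM in in vivo blastocysts. IVF hatched blastocysts had 75.9, 42.6 and 34.1 CPM, against 26.7 CPM in the unnumbered library and 0.643 CPM in library 2 of in vivo hatched blastocysts. All 6 IVF libraries of the later stages lay above the in vivo libraries of the same stage. PLAU rose from the 4-cell stage, by 5.38 ± 1.80 in IVF blastocysts (adjusted p = 0.0298) and 5.86 ± 1.83 in IVF hatched blastocysts (adjusted p = 0.0227). It was not called between origins, with 2.95 ± 1.19 in blastocysts (adjusted p = 0.135) and 1.93 ± 1.12 in hatched blastocysts (adjusted p = 0.292).

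Single libraries decided what could be said of PLAU. Without the unnumbered library the value in hatched blastocysts was 6.43 and passed (adjusted p = 0.00973), and the hatching change in vivo was -3.0 in place of 1.49. The difference between blastocysts passed without the unnumbered library (adjusted p = 0.0294) or in vivo hatched library 2 (adjusted p = 0.0288), neither of which is in that contrast. With no filter on low counts it passed in blastocysts (adjusted p = 1.57e-13) and in hatched blastocysts (adjusted p = 7.87e-07). The rise from the 4-cell stage was lost without IVF blastocyst library 1 (4.56, adjusted p = 0.0806) or 3 (5.62, adjusted p = 0.0519), and in hatched blastocysts without IVF hatched library 1 (5.48, adjusted p = 0.0567). With only the 2 groups in the fit it was lost too (adjusted p = 0.0778 and 0.0525). PLAU overlaps CAMK2G and LOC102160869 on the genome, so its counts may include their reads.

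PLAT, the tissue-type plasminogen activator (gene 397121, chromosome 17, 11195599 to 11223821), stayed below 2.4 CPM throughout. The libraries had 1.95, 0.18 and 1.22 CPM in 4-cell embryos, 0, 0 and 0.934 CPM in IVF blastocysts and 0 and 0.0539 CPM in in vivo blastocysts. Hatched blastocysts had 1.01, 1.32 and 2.37 CPM after IVF, against 2.28 CPM in the unnumbered library and 0 in library 2 in vivo. It was detected in all 3 IVF hatched libraries and in 1 of 2 or 1 of 3 libraries of each other blastocyst group. With 2 counts in all in the in vivo blastocysts, the ratio of IVF to in vivo blastocysts was 11.3, with an exact 95% interval of 2.89 to 97.0 that covers counting error only. All 34 counts of the IVF blastocysts came from library 3. The fitted log2 fold change of 3.39 turned to -3.14 without that library and to -0.06 with a replicate block. PLAT was called in no comparison (adjusted p of 0.216 or more). Among the alternatives it passed with hatching in vivo when no filter on low counts was applied (adjusted p = 0.0164), and as lower in IVF blastocysts than in 4-cell embryos without IVF blastocyst library 3 (adjusted p = 0.0155), the only library of that group with PLAT counts.

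HTRA1, a secreted protease that degrades matrix proteins such as fibronectin (gene 100515628, chromosome 14, 132043044 to 132103590), was nearly confined to in vivo hatched blastocysts. IVF hatched blastocysts had 0, 0.129 and 0 CPM, 5 counts in all, against 3.05 CPM in the unnumbered library and 1.66 CPM in library 2 of in vivo hatched blastocysts, 169 counts in all. In vivo blastocysts had 0 and 0.485 CPM, 18 counts. IVF blastocysts and 4-cell embryos had none. The ranges of the hatched groups were apart, and the log2 fold change of -5.53 ± 2.04 between IVF and in vivo hatched blastocysts did not pass (adjusted p = 0.114). It passed when no filter on low counts was applied and when only the 2 hatched groups were in the fit.

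**Figure D3:**
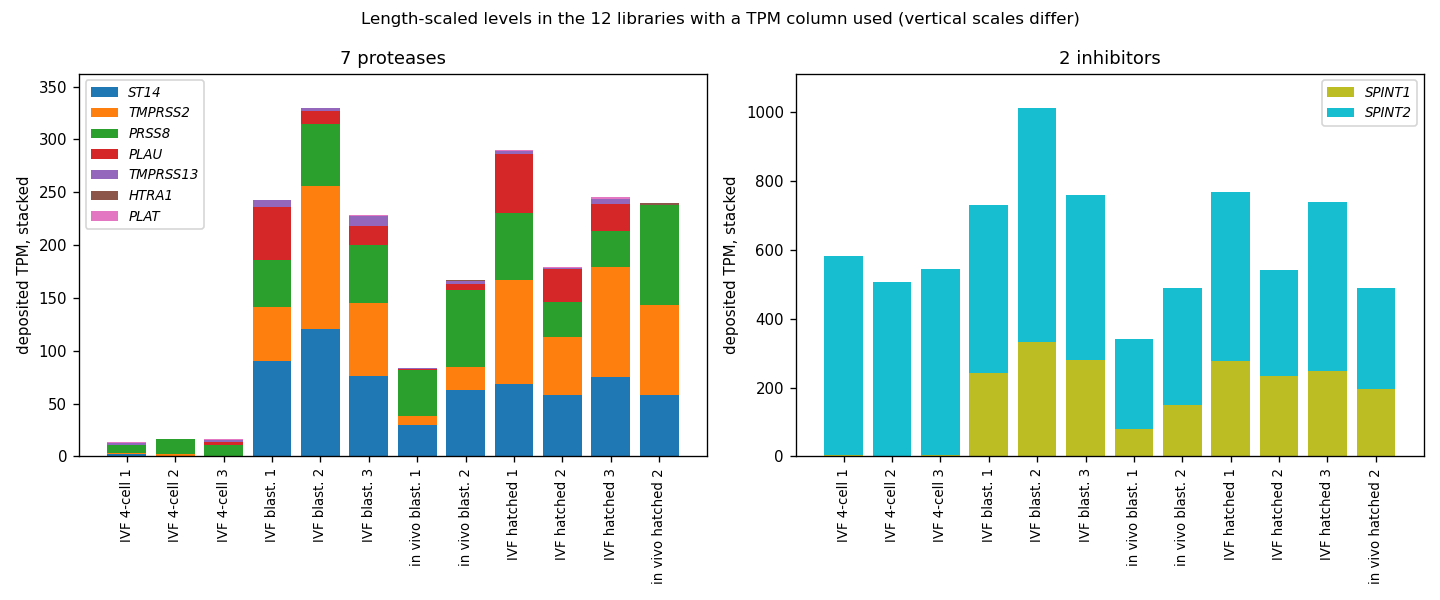
Deposited TPM, which is scaled by gene length, stacked for the 7 proteases (left) and the 2 inhibitors (right) in 12 libraries, without the unnumbered one, with libraries on the horizontal axis by stage and IVF before in vivo. The proteases sum to 14.2 to 16.6 TPM in 4-cell libraries and to 83.5 to 329 TPM in the later ones drawn, while the inhibitors are already at 506 to 584 TPM in 4-cell libraries.

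The deposited TPM values allow genes to be compared per length. For the unnumbered library they were not used, and its ratios and shares come from its CPM and the median length factor of each gene, which is a member's TPM over its CPM relative to that of SPINT2, over those of the other 12 libraries that had counts of the gene (3 for HTRA1, 8 for PLAT and 10 to 12 for the rest). These factors spanned 14.6% of their median for PLAT, which is low throughout, and 6.37% or less for the other members. SPINT2 had the highest level per length of the 9 members in 13 of 13 libraries. The 2 inhibitors together had 30.4 to 41.2 times the level per length of the 7 proteases in 4-cell embryos. Their ratio was 3.01 to 3.33 in IVF blastocysts, against 2.94 and 4.09 in in vivo blastocysts, and 2.65 to 3.02 in IVF hatched blastocysts, against 1.67 in the unnumbered library and 2.04 in library 2 of in vivo hatched blastocysts. The message of inhibitors thus exceeded that of proteases in every library, least in the in vivo hatched libraries, whose values lay apart from those of every other group. SPINT1 made up 0.370% to 0.670% of the inhibitor level in 4-cell libraries and 23.6% to 43.2% in the later ones. These ratios are descriptions of message and carry no test.

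Which protease led differed between groups. PRSS8 had the highest level per length in 3 of 3 4-cell libraries and 2 of 2 in vivo blastocyst libraries, at 43.1 and 72.5 TPM in the in vivo blastocysts. ST14 led in 2 of 3 IVF blastocyst libraries and TMPRSS2 in the other. TMPRSS2 led in 2 of 3 IVF hatched libraries and ST14 in the other. In vivo hatched blastocysts were split, with TMPRSS2 first in the unnumbered library and PRSS8 in library 2. The messages of ST14 and PRSS8 were in unlike proportions by origin, a description that was not tested. PRSS8 was not called between blastocysts, nor ST14 between hatched blastocysts (edgeR adjusted p = 0.778 and 0.520). ST14 over PRSS8 was 2.02, 2.07 and 1.39 in IVF blastocysts, against 0.694 and 0.867 in in vivo blastocysts, and 1.07, 1.74 and 2.21 in IVF hatched, against 0.599 and 0.616 in in vivo hatched blastocysts. The ratio was above 1 in all 6 IVF libraries of these stages and below 1 in all 4 in vivo libraries. SPINT1 over ST14 varied less, from 2.39 to 4.04 over the 10 libraries.

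**Figure D4:**
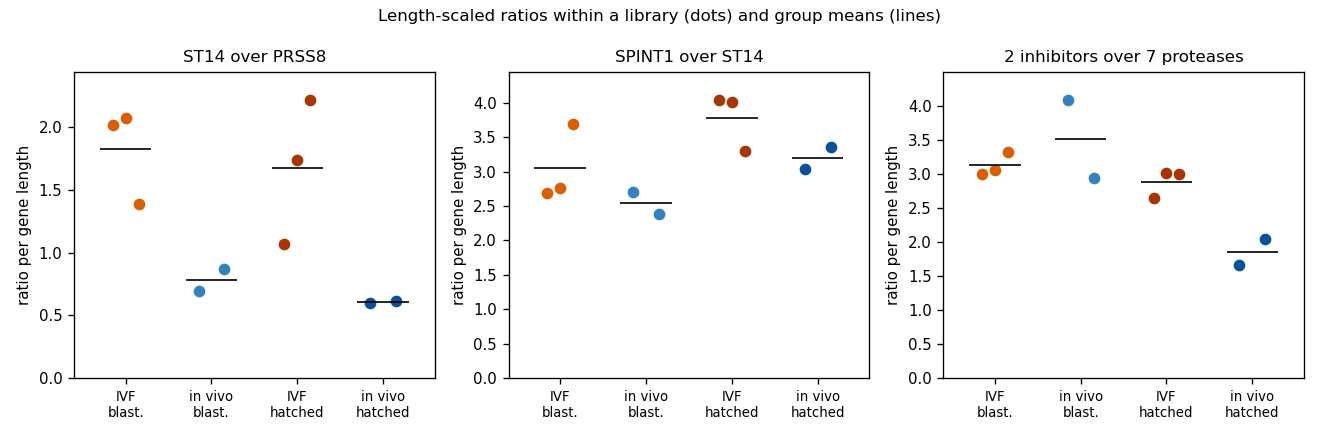
Ratios of levels per length within each library (deposited TPM, or CPM with length factors for the unnumbered library) (vertical axis, from 0) for ST14 over PRSS8, SPINT1 over ST14 and the summed inhibitors over the summed proteases, with 1 dot per library and the group mean as a line, in the 4 later groups. ST14 over PRSS8 separates IVF from in vivo libraries at both stages, and inhibitors over proteases is lowest in in vivo hatched blastocysts.

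The other genes of the plasminogen system were described from a list of 16, of which 14 were tested. PLG, plasminogen itself, had 0 counts in all 13 libraries of 474064071 counts in total. In blastocysts 3 of the 14 were higher after IVF and none lower, where 10.8% of all genes were called, 6.09% higher and 4.74% lower. Among the 3 were S100A10 and ANXA2, which form a plasminogen-binding complex at the cell surface. S100A10 had 272 ± 11.5 CPM in IVF blastocysts and 65.9 ± 0.897 CPM in in vivo blastocysts (2.01 ± 0.31, adjusted p = 0.00456). ANXA2 had a log2 fold change of 1.21 ± 0.21 (adjusted p = 0.00692), lost without in vivo blastocyst library 1 (adjusted p = 0.0679). The median of the 14 was 0.50.

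In hatched blastocysts ANXA2 and S100A10 were again higher after IVF, by 1.80 ± 0.21 (adjusted p = 0.000602) and 1.61 ± 0.30 (adjusted p = 0.00735). The second of these was lost without in vivo hatched library 2 (adjusted p = 0.0798). PLAUR, the urokinase receptor, was lower, with 0.974 ± 0.485 CPM after IVF and 17.2 ± 3.31 CPM in vivo (-4.04 ± 1.13, adjusted p = 0.0392). The protease and its receptor therefore lay on opposite sides, with PLAU at 50.8 ± 22.1 CPM after IVF and 13.7 ± 18.5 CPM in vivo, although the PLAU difference did not pass. The PLAUR call was lost without any of 6 libraries, namely IVF blastocyst library 3, the 3 IVF hatched and both in vivo hatched libraries, at an adjusted p of up to 0.158. From the 4-cell stage 8 of 13 tested genes of the list rose in IVF blastocysts and 1 fell. Over all genes 25.7% were called higher and 30.6% lower there. ENO1, the glycolytic enzyme that also binds plasminogen, had 24.8 ± 14.4 CPM in 4-cell embryos, 1285 ± 146 CPM in IVF blastocysts and 1740 ± 363 CPM in IVF hatched blastocysts, and SERPINE2, an inhibitor of thrombin and urokinase, had 20.4 ± 14.6, 150 ± 20.9 and 206 ± 9.66 CPM in the same order (each rise with an adjusted p of 0.000371 or less).

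Of 21 listed substrates and partners of these proteases, 17 were tested in the later stages. Of the 17, 2 changed with hatching in vivo, both higher, where 14.3% of all genes were called, 6.96% higher and 7.39% lower. The 2 were subunits of the epithelial sodium channel, which lets sodium into epithelial cells and is opened further when prostasin cuts it. SCNN1B had 17.3 ± 0.867 CPM in in vivo hatched and 0.129 ± 0.182 CPM in in vivo blastocysts (6.89 ± 1.06, adjusted p = 0.00248). SCNN1G, the subunit that prostasin cleaves, had 30.2 ± 3.46 CPM in in vivo hatched and 1.72 ± 1.36 CPM in in vivo blastocysts (4.01 ± 0.78, adjusted p = 0.00725). Both of these calls held with each library left out. The alpha subunit SCNN1A had 9.28 ± 1.54 CPM in in vivo hatched and 5.16 ± 2.53 CPM in in vivo blastocysts and was not called.

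After IVF the channel subunits were at similar levels in the hatched and unhatched stage, with 4.37 ± 2.03 CPM in hatched and 4.07 ± 1.85 CPM in unhatched blastocysts for SCNN1B and 6.65 ± 3.61 and 6.0 ± 3.77 CPM for SCNN1G. The difference of hatching changes, IVF minus in vivo, was -6.77 ± 1.19 for SCNN1B (adjusted p = 0.0126) and -3.84 ± 0.93 for SCNN1G (adjusted p = 0.0405). The SCNN1B value held with each library left out, and the SCNN1G value was lost without any of 7 of the 10 libraries (adjusted p of up to 0.0823). Between origins the calls on the channel ran both ways. SCNN1B was higher in IVF than in in vivo blastocysts (4.86 ± 0.97, adjusted p = 0.0122), which held with each library left out and was lost with only the 2 groups in the fit. SCNN1G was lower in IVF hatched than in in vivo hatched blastocysts (-2.12 ± 0.62, adjusted p = 0.0487), a call lost without any of 6 libraries (adjusted p of up to 0.143). PRSS8 was high in the same in vivo hatched libraries, but was not called with hatching in vivo (edgeR adjusted p = 0.235). A link between PRSS8 and the channel subunits was not tested.

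Other partners of the list differed by origin. F2RL1, the PAR2 receptor that trypsin-like proteases activate, had 312 ± 24.5 CPM in IVF blastocysts and 148 ± 79.0 CPM in in vivo blastocysts (1.08 ± 0.27, adjusted p = 0.0266), a call lost without IVF blastocyst library 1 or 2 or in vivo blastocyst library 1 (adjusted p of up to 0.192). FN1, fibronectin, a matrix substrate of plasmin and HTRA1, had 8.26 ± 6.20 CPM in IVF hatched and 164 ± 118 CPM in in vivo hatched blastocysts (-4.21 ± 0.70, adjusted p = 0.00384), and this held with each library left out. Some markers of the hypoblast, the inner layer that lies against the cavity, moved with it. GATA6, the most abundant of the list in these groups, did not. It had 145 CPM in IVF hatched, 146 CPM in in vivo hatched and 122 CPM in in vivo blastocysts, and was not called. Of 6 hypoblast markers, 4 were lower in IVF hatched than in in vivo hatched blastocysts, where 4.88% of all genes were called lower. The same 4 were higher in in vivo hatched than in in vivo blastocysts, where 6.96% of all genes were called higher (GATA4, SOX17, COL4A1 and PDGFRA). Their list summed to 128 to 206 CPM in IVF hatched, 204 to 673 CPM in in vivo hatched and 111 to 186 CPM in in vivo blastocysts, and none of the 6 was at 0 in these groups. For the calls on these markers no result with libraries left out is given here. The part of hypoblast cells in the levels of FN1, HTRA1, TMPRSS2 or the channel subunits was not tested.

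A further list held serpins, other protease inhibitors and related proteins, without the members. Among its 16 tested genes, 2 were higher and 1 lower in IVF blastocysts, and 3 were higher and 1 lower in IVF hatched blastocysts, relative to in vivo. Over all genes, 10.8% were called in blastocysts and 11.8% in hatched blastocysts. SERPINB5 (maspin) had 60.8 ± 36.8 CPM in IVF hatched and 5.45 ± 0.543 CPM in in vivo hatched blastocysts (3.55 ± 0.58, adjusted p = 0.00328). WFDC1, a small secreted protein of the whey acidic family, had 8.58 ± 3.15 CPM in IVF hatched and 0.254 ± 0.245 CPM in in vivo hatched blastocysts (5.14 ± 0.78, adjusted p = 0.00236). These calls held with each library left out. RECK, a membrane-anchored inhibitor of matrix metalloproteinases, was lower after IVF (-3.67 ± 0.68, adjusted p = 0.00684), and did not pass with in vivo hatched library 2 left out (adjusted p = 0.196). With hatching in vivo 2 genes of the list rose and 4 fell, where 14.3% of all genes were called, 6.96% higher and 7.39% lower. SERPINB5 was among those that fell (-2.67 ± 0.57, adjusted p = 0.0115), which was lost without in vivo blastocyst library 2 or in vivo hatched library 2 (adjusted p of up to 0.0654).

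SERPING1, the C1 inhibitor, was lower in IVF blastocysts, with 11.99 ± 13.4 CPM, than in in vivo blastocysts, with 71.8 ± 5.95 CPM (-2.63 ± 0.65, adjusted p = 0.0271). It was lost without IVF blastocyst library 1 or 2 or in vivo blastocyst library 1 (adjusted p of up to 0.124) and with only the 2 groups in the fit. Of 21 other serine proteases tested in the later stages, PRSS23, a secreted protease, was called between origins at both stages and was the only one. Over all genes 10.8% were called in blastocysts and 11.8% in hatched blastocysts. PRSS23 had 27.0 ± 9.67 CPM in IVF blastocysts and 5.99 ± 1.72 CPM in in vivo blastocysts (2.12 ± 0.53, adjusted p = 0.0276), and 12.6 ± 6.11 CPM in IVF hatched and 2.33 ± 1.25 CPM in in vivo hatched blastocysts (2.49 ± 0.54, adjusted p = 0.0141). The first was lost without IVF blastocyst library 2 or 3 or either in vivo blastocyst library (adjusted p of up to 0.113), the second without in vivo hatched library 2 (adjusted p = 0.132). With all 13 libraries in the fit, none of the calls between origins or with hatching named for these lists passed.

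Of the other serine proteases 5 of 17 rose and 5 fell between the 4-cell stage and IVF blastocysts. Of the list of serpins and other inhibitors 4 of 13 rose and 3 fell, in the comparison where 56.3% of all genes were called. SPINK5, a Kazal-type inhibitor of skin proteases, had 319 ± 78.9 CPM in 4-cell embryos, 0.107 ± 0.110 CPM in IVF blastocysts and 0 in IVF hatched blastocysts (adjusted p = 0.000265 in blastocysts and 0.000173 in hatched blastocysts). F2, prothrombin, had 281 ± 91.8, 2.91 ± 1.25 and 2.52 ± 1.20 CPM in the same order, and CORIN, a type II transmembrane protease of the heart, had 16.3 ± 2.19, 0.00916 ± 0.0159 and 0 CPM. ZP4, a protein of the zona pellucida, had 4476 ± 1490 CPM in 4-cell embryos and below 1 CPM later. FURIN, a proprotein convertase of the secretory pathway, had 11.04 ± 4.01, 80.1 ± 45.1 and 64.6 ± 42.4 CPM in stage order (3.15 ± 0.65, adjusted p = 0.00348, and 2.86 ± 0.64, adjusted p = 0.00511, against 4-cell embryos).

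Genes with the profile most like that of a member were taken as those with the highest Pearson correlation of log2(CPM + 1) over the 13 libraries, among genes with a proper symbol and a mean of at least 5 CPM. The contrast between 4-cell embryos and later stages is common to most of them, so the value over the 10 later libraries is given as well, and both are descriptions. For SPINT1 the first was PKP3, a desmosomal plakophilin (r = 0.995 over 13 libraries, 0.928 over 10). For TMPRSS2 it was EFHD2 (0.981 and 0.942), for PRSS8 ROGDI (0.980 and 0.905) and for ST14 GGTA1P (0.994 and 0.789). TMPRSS13 was most like EMC6 (0.911 and 0.925), with TAGLN, a marker of smooth muscle actin filaments, next (0.901 and 0.956). SPINT2 was most like KLHL5 (0.893 and 0.918), PLAU like NCMAP (0.920 and 0.848) and HTRA1 like ALPL, an alkaline phosphatase (0.915 and 0.917). PLAT had no close match, with 0.704 over 13 libraries for THRAP3.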

How the data were processed

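A single gene table was deposited by the authors, with Sscrofa11.1 as the build per the submitters' processing notes. Its deposited read counts are whole numbers that were not normalised, and its deposited TPM values are scaled by gene length and library. Per the labels' protocols, poly(A) RNA was read as 150 base pairs from both ends. The same notes list RSEM, HISAT2, StringTie 1.3.1, Bowtie2 and fastp 0.18.0, with no role or order. The counting step and its use of strand are not stated in those notes. Of 39 columns of values 14 were not used, the 13 of FPKM and the TPM of the unnumbered library, whose length-scaled ratios come from its CPM and the length factors of the other 12. Gene positions come from a RefSeq table of the same build, which matched 28208 of 28232 genes.

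The test was edgeR 4.0.16 (quasi-likelihood, R 4.3.3) on the counts, with TMM normalisation, genes of low count removed by filterByExpr and p-values adjusted over all genes (Benjamini-Hochberg). The 10 later libraries were fitted together (15528 genes), and the 9 IVF libraries together (16312 genes). The analysis was tested on simulated data. Alternatives were RLE factors, no filter, DESeq2 1.42.0, all 13 libraries, only the groups compared, a replicate block and each library left out. A fold against a group at 0 is a bound from 3 counts in each library, and such bounds and intervals hold counting error alone. Libraries of a group were compared and differed by far more than counting error (chi-square over its degrees of freedom, lowest value 72.5), so none were merged.

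The members and the 5 pathway and 9 marker lists were chosen with earlier results of these data known. Besides the 9 members, the text names called genes of each pathway list with at least 5 CPM in the higher group, up to 3 per list and comparison by smallest p, and for each member the genes with the most similar profile. SCNN1A, PLG, the SCNN1B call between blastocysts and markers given with values were named outside that rule, with values seen. Sequences were not used here, and 1 gene that the rule names is not reported here.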

Additional observations from a re-analysis of the deposited data

Results flagged for a closer look

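The hatching change of TMPRSS13 differed between origins. The fitted difference, IVF minus in vivo, was 9.10 ± 1.69 on the log2 scale (edgeR, adjusted p = 0.0175). Its size depends on the prior count, because both in vivo hatched libraries had 0 counts, while 3 of 3 IVF hatched libraries and 2 of 2 in vivo blastocyst libraries had counts.

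The hatching change of TMPRSS2 also differed between origins, by -2.79 ± 0.65 (edgeR, adjusted p = 0.0367). Levels were higher in both in vivo hatched libraries than in both in vivo blastocyst libraries, and the IVF groups overlapped.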

How the results depend on the processing

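With no filter on low counts, the genes called were 2749 (IVF blastocysts against in vivo blastocysts, 7 members), 2850 (hatched blastocysts by origin, 4 members), 162 (IVF hatching) and 1855 (difference of hatching changes), and 4 members were called for in vivo hatching. With DESeq2 the counts were 2944, 3001, 51 and 1879 in that order, and 3562 for in vivo hatching. With all 13 libraries in the fit they were 7, 92, 0 and 1, and 101 for in vivo hatching, with 0 members called in each of these comparisons. With only the groups compared in the fit, in vivo hatching had 757. The share called higher for the difference of hatching changes was 59.2%, and 51.1% with no filter. With single libraries left out, the genes called ranged from 320 to 2022 (blastocysts by origin, 0 to 5 members), 513 to 2074 (hatched by origin, 1 to 2), 1064 to 2153 (in vivo hatching, 2 to 3), 4 to 7 (IVF hatching, 0 members), 333 to 969 (difference of hatching changes, 1 to 2), 7622 to 11451 (IVF blastocysts against 4-cell embryos, 4 to 5) and 7511 to 11531 (IVF hatched against 4-cell embryos, 4 to 5). The lowest value between blastocysts came without in vivo blastocyst library 1, and the lowest in hatched blastocysts without in vivo hatched library 2. Same-numbered libraries did not deviate together (correlations from -0.276 to 0.0582), so the numbers were not taken as pairs. A replicate block gave 1028 genes between blastocysts, with ST14 at an adjusted p of 0.0550, and added TMPRSS13 for IVF blastocysts against 4-cell embryos. No paired analysis was possible for the other in vivo comparisons because the column of the unnumbered library carries no number. The signs that turned were all of values not called. Such values are not listed here where a group held 3 counts or fewer. With libraries left out, PRSS8 between blastocysts ran from -0.39 to 0.11 (without in vivo blastocyst library 2). In hatched blastocysts by origin TMPRSS2 ran from -0.69 to 0.18 (without the unnumbered library) and PLAT from -0.53 (without library 2) to 8.90. For in vivo hatching SPINT2 was 0.0118 with 13 libraries, 0.00186 with only the groups compared and -0.23 to 0.181 with a library left out (0.00665, 0.00927 without IVF blastocyst library 3, 0.0517 without in vivo blastocyst library 2), ST14 ran from -0.10 to 0.70 and PLAU from -3.0 to 2.93. For IVF hatching TMPRSS2 was 0.00931, 0.00398 and 0.158 (replicate block), and -0.26 to 0.499 with a library left out (0.00207, 0.00513 and 0.226 among them). The PLAU difference of hatching changes ran from -2.45 to 3.48 (without the unnumbered library), and SPINT2 in IVF hatched against 4-cell embryos ran from -5.8e-05 (without IVF hatched library 1) to 0.27. The cause of these changes was not tested. With 2 or 3 libraries a group, PLAT, HTRA1 and TMPRSS13 rest on few counts, and changes below the spread were not detectable.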
